A study of Mus musculus with 21 samples.

Results

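The DNA replication genes followed here were 39 genes chosen by symbol for what their proteins do when a cell copies its genome. All 39 were present among the 23204 gene symbols counted in each of 21 libraries of mouse lung fibroblasts. By role they were 8 genes of origin licensing, 6 of helicase activation, 6 of the sliding clamp and its loader, 8 of the polymerases and primase, 4 of nucleotide supply, 4 of Okazaki fragment maturation and single-strand binding, and 3 of chromatin assembly and methylation maintenance. Of the 39, 31 had counts high enough to be tested, and the other 8 are described by their counts.

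Before S phase, Cdc6 and Cdt1 load the MCM ring (Mcm2 to Mcm7) onto replication origins, and Cdc45 and the GINS complex then turn the ring into a working helicase. Primase and polymerase alpha start each new strand, the clamp PCNA, loaded by replication factor C, holds the polymerases delta and epsilon on DNA, and Fen1 and Lig1 trim and join the fragments of the lagging strand. Most of these genes are transcribed under E2F factors as cells leave quiescence, so their transcripts are widely used as a sign of cell division, and lung fibroblasts rarely divide in the healthy adult.

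The cells came from female C57BL/6 mice with a Col1a2-GFP transgene, in which a Col1a2 promoter drives green fluorescent protein. Every group was sorted alike, for equal numbers of live cells that carried the fluorescence and lacked CD45, CD31, EpCAM, CD146 and Ter119, so that fibroblasts without the reporter are not represented. The 7 groups of 3 libraries were untreated mice and mice at day 7, 14 and 63 after 1 dose by oropharyngeal aspiration, either of bleomycin (BLM, 2 mg/kg), which the series calls reversible, or of crystalline silica (SiO2, 400 mg/kg), which it calls progressive. No saline group was labelled, so the aspiration itself and the agent cannot be told apart, and nothing says that the libraries of a group are separate mice, so the p-values measure the spread between these libraries only.

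Total counts ran from 2080636 to 4477283 per library, and 11669 symbols passed the filter on low counts. The summed level of 8 fibroblast markers, such as the collagens Col1a1 and Col3a1, was 21318 to 23276 CPM in the untreated libraries and 33306 to 34379 CPM at SiO2 day 14. At SiO2 day 14, 5 of the 8 were called higher and 1 lower, beside 13.6% and 10.5% of all tested genes. At BLM day 7, BLM day 14 and SiO2 day 7, 4, 5 and 3 of the 8 were called higher, and 3 were called lower in each. Of all tested genes 16.7%, 20.7% and 23.4% were higher in these groups and 14.9%, 18.5% and 20.6% lower. Of the markers of other cells, Ptprc, Cd3e, Epcam, Pecam1 and Cdh5 had 7 counts or fewer in every group of 3 libraries. Ptprc (CD45), Epcam and Pecam1 (CD31) encode proteins that the sort selected against. The full lists held more counts: 1178 for 9 epithelial markers at BLM day 7, 643 for 6 lymphocyte markers at SiO2 day 7 and 258 for 7 endothelial markers in untreated. In pooled cells such as these, more dividing cells and more replication transcript per cell cannot be told apart. Levels are given in CPM, the library's counts scaled to a common total with TMM factors, always in the order of replicates 1, 2 and 3. Differences are log2 fold changes ± standard error from 1 edgeR quasi-likelihood model of all 7 groups. The standard error was derived as the absolute log2 fold change divided by the square root of the test's F value. It is only a rough guide where a group had few counts. A gene was called at an adjusted p (Benjamini-Hochberg over the 11669 genes) under 0.05.

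The promoters are shown first because E2F-type elements are the sequence feature most often tied to this gene set. RefSeq promoters (GRCm38.p6, 250 bases before to 50 after the start) were found for 32 of the 39 genes, 38 promoters in all. Mcm4, Gins1, Gins2, Gins4, Rfc2, Pole and Prim2 had none in the table. An E2F-type element, any of TTTCCCGC, TTTCGCGC, TTTGGCGC and TTTGCCGC on either strand, stood in 13 of the 38 promoters (34.2%), against 2.26% of all 32851 promoters of the same length. CCAAT was found in 22 of the 38 (57.9%, all promoters 37.4%), the GC box GGGCGG in 27 (71.1%, all promoters 35.7%) and TTTGAA, a cell cycle homology region type element, in 5 (13.2%, all promoters 17.9%). The promoters of replication genes also had more G and C, with a median of 59.2% against 52.7%, and a match of letters shows no binding.

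For each role group with a tested gene that holds such an element, the promoter of the one with the highest mean CPM is printed 5′ to 3′ on the gene's own strand, with the E2F-type element in capitals. They lie at chr11:98907901-98908200, plus strand (Cdc6), chr7:44548766-44549065, minus strand (Pold1), chr7:13278576-13278875, plus strand (Lig1) and chr17:56304063-56304362, plus strand (Uhrf1).
Cdc6: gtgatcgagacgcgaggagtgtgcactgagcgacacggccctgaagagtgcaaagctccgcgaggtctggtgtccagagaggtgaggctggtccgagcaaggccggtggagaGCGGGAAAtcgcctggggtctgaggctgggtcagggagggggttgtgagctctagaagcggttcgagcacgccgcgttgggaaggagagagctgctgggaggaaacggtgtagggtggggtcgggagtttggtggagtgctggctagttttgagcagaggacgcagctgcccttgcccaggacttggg
Pold1: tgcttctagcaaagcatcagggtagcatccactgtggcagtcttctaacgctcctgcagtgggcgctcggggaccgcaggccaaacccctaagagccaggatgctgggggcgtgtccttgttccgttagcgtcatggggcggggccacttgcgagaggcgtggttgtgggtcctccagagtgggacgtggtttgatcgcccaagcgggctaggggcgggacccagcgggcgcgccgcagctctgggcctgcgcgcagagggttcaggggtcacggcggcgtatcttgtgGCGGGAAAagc
Lig1: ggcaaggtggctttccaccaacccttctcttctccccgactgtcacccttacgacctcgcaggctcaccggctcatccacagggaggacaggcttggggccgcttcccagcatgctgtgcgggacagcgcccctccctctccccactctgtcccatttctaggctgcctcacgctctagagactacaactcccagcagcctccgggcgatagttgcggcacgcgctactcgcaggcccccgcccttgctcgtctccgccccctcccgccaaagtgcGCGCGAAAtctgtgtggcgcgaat
Uhrf1: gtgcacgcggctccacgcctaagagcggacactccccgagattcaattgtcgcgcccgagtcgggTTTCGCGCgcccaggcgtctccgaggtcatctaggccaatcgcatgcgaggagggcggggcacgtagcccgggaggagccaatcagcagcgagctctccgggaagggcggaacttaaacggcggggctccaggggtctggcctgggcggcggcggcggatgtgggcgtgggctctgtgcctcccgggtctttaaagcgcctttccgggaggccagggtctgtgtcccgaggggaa

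The positions differed from gene to gene. Counted in bases from the start, with negative values before it, the element of Cdc6 began at -138 and that of Uhrf1 at -185, whereas those of Pold1 and Lig1 began at 39 and 26. Mcm5 and Mcm6 each held an overlapping pair on opposite strands, at -153 and -149 and at -110 and -106. Of the 10 tested genes with an element 9 rose at SiO2 day 7 and 8 at BLM day 7, and of the 16 tested genes whose promoters held none 11 and 10 rose. Of all tested genes, 23.4% and 16.7% were called higher in these groups. Mcm4, Gins2, Gins4, Rfc2 and Prim2 were tested but had no promoter to search, so they are in neither count. Tk1, Fen1, Prim1 and Mcm2, which rose in both models at day 7, were among those 16.

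**Figure D1:**
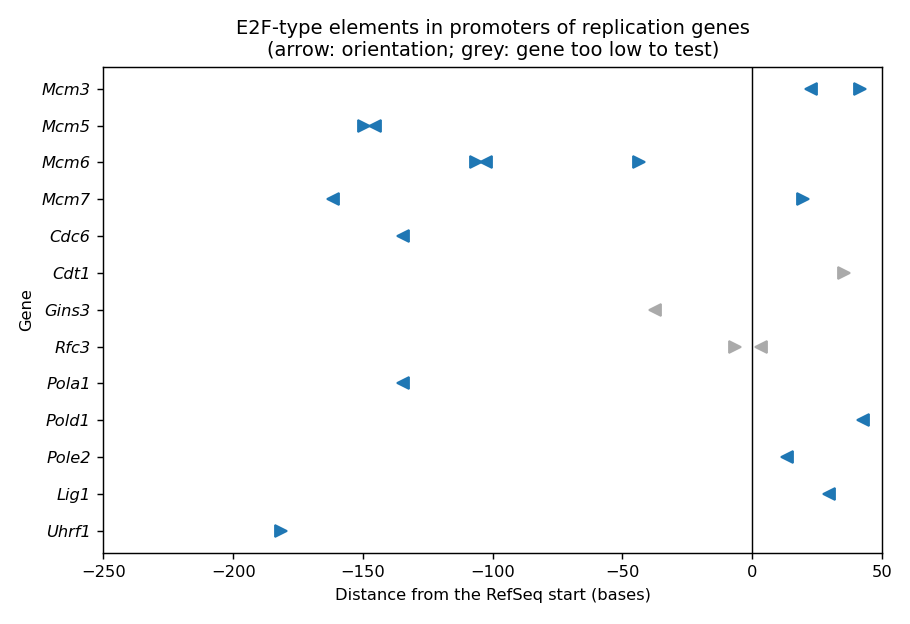
Each arrow is 1 E2F-type element, placed by its distance in bases from the RefSeq start (x axis) in the 13 replication genes that hold one (y axis); the arrow gives its orientation and grey marks genes too low to test. The 19 elements run from -185 in Uhrf1 to 39 in Pold1.

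At day 7 most of the tested replication genes were higher than in untreated mice in both models, with at least 1 in every role group. With bleomycin 20 of the 31 tested genes rose (64.5%, beside 16.7% of all tested genes), and with silica 22 of 31 rose (71.0%, beside 23.4% of all tested genes). None of the 31 was called lower, beside 14.9% and 20.6% of all tested genes. The median log2 fold change of the 31 was 1.28 with bleomycin and 1.26 with silica, against 0.02 and 0.04 over all tested genes. Both comparisons share the untreated libraries. The filter needs enough counts in only some libraries, so a gene can pass it through the groups where it is high. Uhrf1, Mcm5 and Rrm2, for example, did not exceed 1.21, 1.05 and 1.04 CPM outside the day 7 groups and BLM day 14. Calls of such genes in comparisons with those groups are not independent of the filter, and the counts of called genes include them. By role, the called genes in bleomycin and silica were 5 and 6 of 7 in licensing, 2 and 2 of 3 in helicase activation, 2 and 2 of 4 in the clamp and its loader, 4 and 4 of 7 among polymerases and primase, 4 and 4 of 4 in nucleotide supply, 2 and 3 of 4 in Okazaki maturation and single-strand binding, and 1 and 1 of 2 in chromatin assembly. Whichever library was left out, 13 of the 20 bleomycin calls and 16 of the 22 silica calls were kept, and without untreated replicate 2 the bleomycin count was 13.

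The summed level of all 39 genes gives the course of the whole set. It was 328, 343 and 354 CPM in the untreated libraries, 669.7, 865 and 817 CPM at BLM day 7 and 827, 770.2 and 915 CPM at SiO2 day 7. At day 14 it was 690.1, 497 and 446 CPM with bleomycin and 372, 309.9 and 331 CPM with silica. All libraries of both day 7 groups and of BLM day 14 lay above the untreated range, whereas the SiO2 day 14 libraries straddled it. At day 63 the sum was 319.7 to 341 CPM with bleomycin and 308 to 333 CPM with silica, so that both ranges overlapped the untreated one. Without Pold1, Tk1 and Prim1, the 3 genes with the highest mean CPM, the sum of the other 36 was 179 to 217 CPM in untreated, 357 to 454 CPM at BLM day 7 and 403 to 482 CPM at SiO2 day 7. At SiO2 day 14 it was 262, 222 and 209 CPM, so that replicates 1 and 2 lay above the untreated range. By role, nucleotide supply lay above that range at SiO2 day 14 (28.5 to 40.1 against 13.5 to 20.6 CPM). Polymerases and primase lay below it (106 to 137 against 155 to 171 CPM), and the other role groups overlapped it. At SiO2 day 63 helicase activation (27.4 to 39.4 against 11.4 to 22.01 CPM) and nucleotide supply (28.5 to 34.6 CPM) lay above the untreated range. Polymerases and primase lay below it (110 to 134 CPM), so that the sum at SiO2 day 63 held shifts in opposite directions. The other role groups overlapped the untreated range, as did every role group at BLM day 63.

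**Figure D2:**
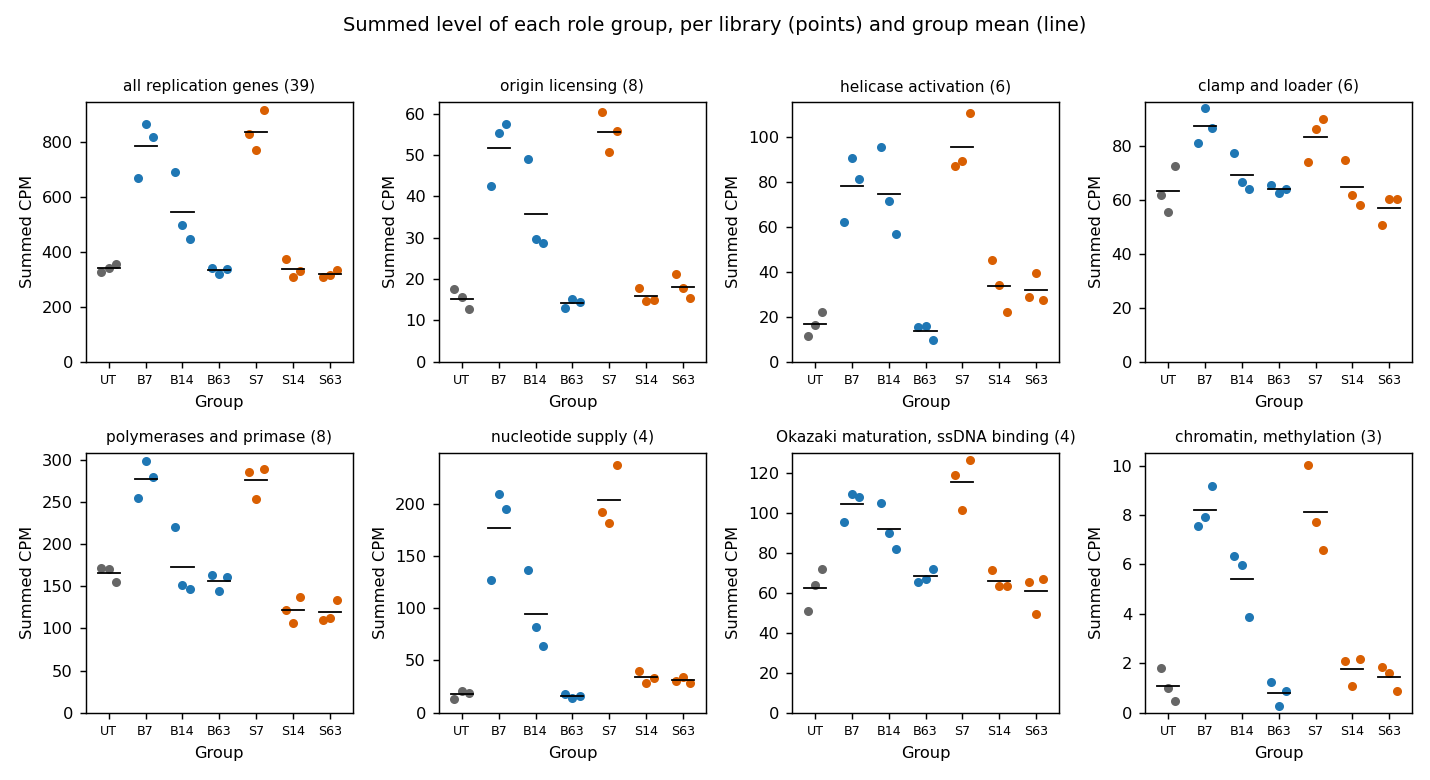
Summed CPM (y axis) of all 39 replication genes and of each role group, with the number of genes in brackets, by group (x axis: UT untreated, B bleomycin, S silica, with the day); points are libraries and lines group means. The sum of all 39 lies at 328 to 354 CPM in untreated libraries, 670 to 865 CPM at BLM day 7 and 770.2 to 915 CPM at SiO2 day 7.

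**Figure D3:**
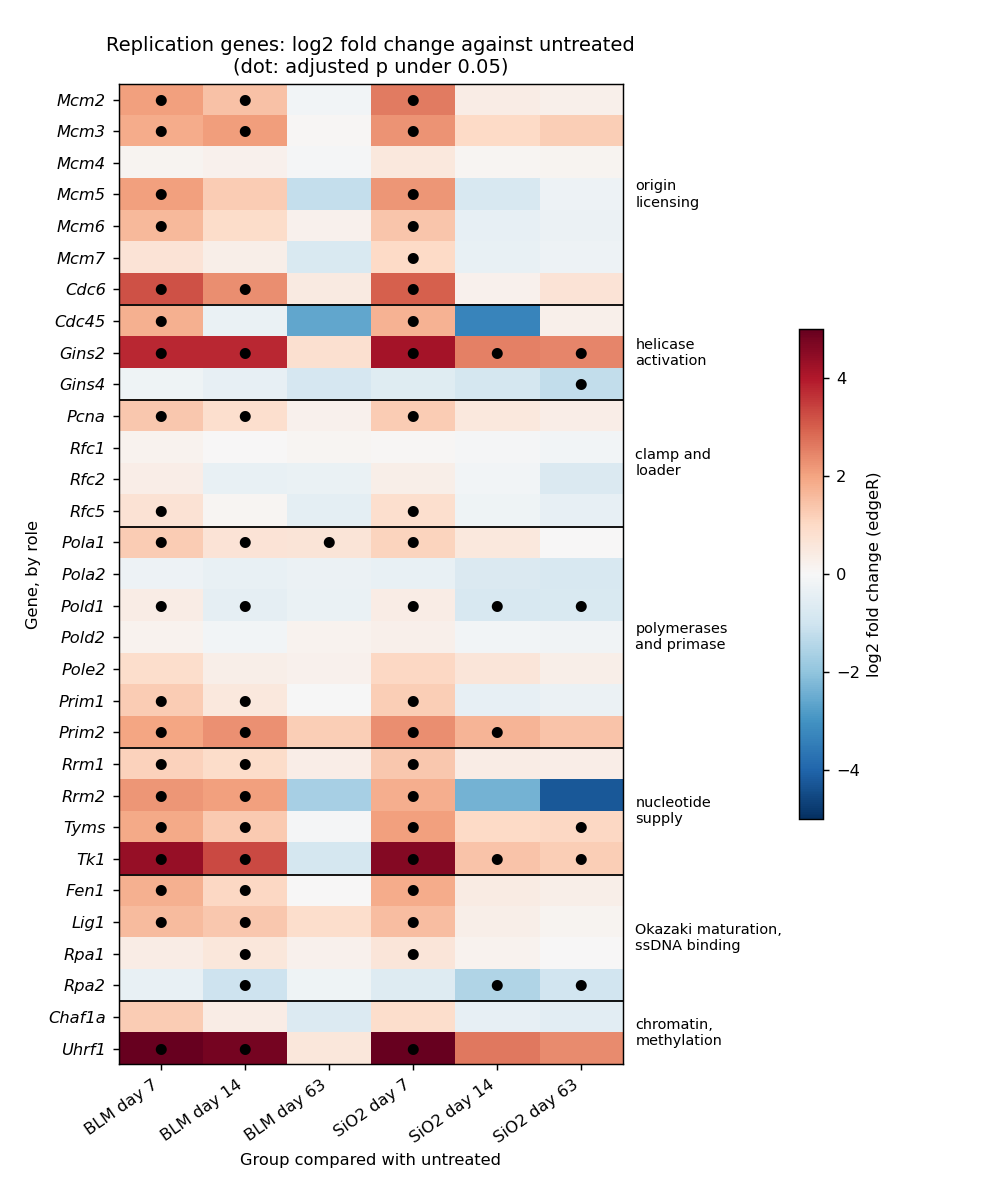
Log2 fold change against untreated (colour, scale limited to 5 either way) for the 31 tested genes (rows, by role) in each treated group (columns); dots mark an adjusted p under 0.05. The day 7 columns hold 20 and 22 higher genes, BLM day 14 holds 16, and SiO2 day 14 and 63 hold 3 each; fitted values of Uhrf1, Rrm2 and Cdc45 rest on groups with 2 counts or fewer.

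In origin licensing, Cdc6, which helps to load the MCM ring, had the highest mean CPM of the group. Its level was 1.81, 3.27 and 2.34 CPM in untreated libraries, 21.2, 24.3 and 23.1 CPM at BLM day 7 and 22.6, 17.3 and 20.8 CPM at SiO2 day 7. At day 14 it was 18.7, 8.37 and 11.6 CPM with bleomycin but 2.38, 3.73 and 2.67 CPM with silica. Every library of both day 7 groups and of BLM day 14 was above all untreated ones, while SiO2 day 14 overlapped them. Cdc6 rose 9.04-fold at BLM day 7 (3.18 ± 0.33, adjusted p = 6.8e-09), 7.99-fold at SiO2 day 7 (2.998 ± 0.33, adjusted p = 8.1e-09) and 5.03-fold at BLM day 14 (2.33 ± 0.35, adjusted p = 3.3e-06). At day 63 it stood at 2.49, 5.74 and 2.45 CPM with bleomycin and 5.78, 3.19 and 3.12 CPM with silica, neither called.

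Of the 6 subunits of the MCM ring, 4 rose at BLM day 7 and 5 at SiO2 day 7. At day 7 Mcm2 rose by 2.06 ± 0.48 on the log2 scale with bleomycin and by 2.61 ± 0.45 with silica, and Mcm5 by 2.03 ± 0.57 and 2.19 ± 0.55. Mcm3 rose by 1.84 ± 0.59 with bleomycin and 2.24 ± 0.56 with silica, and Mcm6 by 1.61 ± 0.56 and 1.40 ± 0.56. The call of Mcm3 with bleomycin was lost without untreated replicate 1 or 2 or BLM day 7 replicate 1 (adjusted p up to 0.060). That of Mcm6 was lost in each model without any of 4 libraries, among them untreated replicates 1 and 2 (adjusted p up to 0.15 and 0.21). Mcm7 passed the test with silica (1.00 ± 0.33, adjusted p = 0.016, up to 0.087 without untreated replicate 2 or 3) and not with bleomycin (0.68 ± 0.35, adjusted p = 0.14), and the difference between the models did not pass the test (0.31 ± 0.31, adjusted p = 0.62). Mcm4, another subunit of the ring, was at 4.66, 4.52 and 3.75 CPM in untreated, 5.51, 4.75 and 4.12 CPM at BLM day 7 and 7.02, 6.38 and 5.82 CPM at SiO2 day 7, and it passed the test in none of the 14 comparisons. At BLM day 14 Mcm2 (1.48), Mcm3 (2.07) and Cdc6 were the licensing genes called higher, and only Mcm3 and Cdc6 kept the call in every leave-one-out fit.

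Among the genes that activate the helicase, Gins2, which encodes a subunit of the GINS complex, was called higher in 5 of the 6 treated groups. It was 4.14, 4.77 and 5.15 CPM in untreated libraries. With bleomycin it was 52.5, 73.4 and 66.2 CPM at day 7, 79.8, 63.0 and 50.6 CPM at day 14 and 8.21, 10.3 and 5.78 CPM at day 63. With silica it was 73.2, 79.7 and 95.2 CPM at day 7, 36.6, 26.1 and 19.0 CPM at day 14 and 22.1, 33.0 and 20.5 CPM at day 63. All 18 treated libraries were above all 3 untreated ones, although the BLM day 63 difference was not called (0.78 ± 0.35, adjusted p = 0.15). Gins2 rose 13.8-fold at BLM day 7, 13.8-fold at BLM day 14 and 17.8-fold at SiO2 day 7 (adjusted p = 5.6e-12, 1.6e-12 and 1.1e-13). With silica it was still 5.80-fold higher at day 14 (2.54 ± 0.29, adjusted p = 8.9e-08) and 5.39-fold higher at day 63 (2.43 ± 0.29, adjusted p = 1.1e-07). The last 1000 bases of Gins2 overlap Gse1 and Gm20388 on the other strand, and the counting is not stated to use strand, so reads of these genes cannot be told apart. Genes on the other strand also overlap the ends of Tk1, Fen1, Rfc5, Rfc2, Rfc4 and Chaf1a. The ends of Pole2, Cdt1 and Mcm7 overlap genes on their own strand, which a stranded count would not separate either.

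The other helicase genes tested were Gins4 and Cdc45. Gins4, which encodes another subunit of the same complex, was 4.92, 9.80 and 8.90 CPM in untreated libraries and 2.103, 3.46 and 4.23 CPM at SiO2 day 63, where it fell by 1.23 ± 0.36 on the log2 scale (adjusted p = 0.0097). That call was lost without untreated replicate 2 or SiO2 day 63 replicate 1 (adjusted p up to 0.093), and Gins4 passed no test at day 7 or 14. Cdc45, a partner of GINS in the helicase, was 0.259, 0.251 and 4.21 CPM in untreated, where 9 of its 11 counts came from replicate 3. It rose at day 7 in both models (1.79 ± 0.65, adjusted p = 0.036 with bleomycin and 1.75 ± 0.65, adjusted p = 0.029 with silica), and each call was lost without any of 4 libraries, untreated replicates 1 and 2 among them (adjusted p up to 0.22 and 0.20). Its log2 fold change ran from 1.19 (without untreated replicate 2) to 3.85 (without untreated replicate 3) with bleomycin and from 1.15 to 3.80 without the same libraries with silica. At SiO2 day 14 Cdc45 had 1 count over the group against 47 at day 7, a ratio of 45.1 (exact 95% counting interval 7.71 to 1819.6); such intervals cover counting error only.

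Of the clamp and its loader, 2 of the 4 tested genes, Pcna and Rfc5, rose at day 7. Pcna, the clamp, was 8.29, 8.54 and 7.49 CPM in untreated, 21.2, 24.8 and 15.8 CPM at BLM day 7 and 16.1, 22.3 and 20.8 CPM at SiO2 day 7, with no overlap. It rose 2.53-fold (1.34 ± 0.23, adjusted p = 3.7e-05) and 2.40-fold (1.26 ± 0.23, adjusted p = 4.2e-05), and 1.80-fold at BLM day 14 (0.85 ± 0.24, adjusted p = 0.0059), a call lost without BLM day 14 replicate 1 (adjusted p = 0.062). Pcna also has 2 named pseudogenes in GENCODE, so its counts may be split or shared. Rfc1, the large subunit of the clamp loader, was 41.7, 37.7 and 52.9 CPM in untreated, 44.7, 51.2 and 53.2 CPM at BLM day 7 and 39.9, 49.4 and 47.8 CPM at SiO2 day 7, with overlapping ranges, and passed no test in any comparison, as did Rfc2. The small subunit Rfc5 rose by 0.72 ± 0.28 with bleomycin and 0.85 ± 0.27 with silica at day 7, and the calls were lost without any of 5 and any of 3 of the 6 libraries (adjusted p up to 0.17 and 0.10), untreated replicates 1 and 2 among them. The bleomycin call was kept in 2 of 9 other settings of scaling, filter, threshold or tool. Rfc2, another small subunit, had the most positive interaction value of the 31 (0.29 ± 0.48, adjusted p = 0.74), with 5.22, 6.34 and 7.29 CPM at BLM day 7, 2.83, 6.57 and 1.93 CPM at BLM day 14, 6.52, 5.31 and 6.58 CPM at SiO2 day 7 and 4.75, 4.26 and 4.62 CPM at SiO2 day 14.

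Among the polymerases and primase, Pold1, the catalytic subunit of polymerase delta, rose at day 7 and was lower later. It was 109, 99.98 and 85.2 CPM in untreated, 118, 132 and 131 CPM at BLM day 7 and 128, 131 and 125 CPM at SiO2 day 7, with no overlap. The day 7 rises were small (0.36 ± 0.13, adjusted p = 0.030 and 0.37 ± 0.13, adjusted p = 0.018), with both calls lost without untreated replicate 3 or day 7 replicate 2 (adjusted p up to 0.14 and 0.11) and with upper quartile scaling (0.067 in both). The bleomycin call was also lost without untreated replicate 2 or BLM day 7 replicate 3. Pold1 was 57.9, 45.3 and 65.6 CPM at SiO2 day 14 and 52.3, 53.8 and 69.0 CPM at SiO2 day 63, all 6 below every untreated library. It fell by 0.81 ± 0.14 (adjusted p = 3.3e-05) and 0.75 ± 0.13 (adjusted p = 5.6e-05). At BLM day 14, with 83.3, 70.8 and 64.9 CPM, it fell by 0.44 ± 0.13 (adjusted p = 0.0094, 0.067 at most without untreated replicate 1 or BLM day 14 replicate 3). These libraries and those of BLM day 63, at 69.4 to 84.5 CPM, were also below every untreated library, though BLM day 63 was not called.

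Prim1, the catalytic subunit of primase, was 36.3, 44.0 and 42.6 CPM in untreated, 88.5, 105 and 99.2 CPM at BLM day 7 and 104, 80.0 and 106 CPM at SiO2 day 7, so that both day 7 groups lay above the untreated range. It rose 2.39-fold (1.25 ± 0.17, adjusted p = 6.5e-07) and 2.37-fold (1.24 ± 0.17, adjusted p = 3.2e-07). At day 14 it was 83.0, 48.7 and 48.1 CPM with bleomycin, where replicate 1 was the highest, and 27.3, 28.5 and 34.7 CPM with silica, where every library was below the untreated ones. The bleomycin rise (0.54 ± 0.17, adjusted p = 0.012) was lost without BLM day 14 replicate 1 or untreated replicate 1 (adjusted p up to 0.25). With silica Prim1 was not called at day 14 (-0.43 ± 0.18, adjusted p = 0.083), though upper quartile scaling called it lower (-0.51, adjusted p = 0.037). Pola1, the catalytic subunit of polymerase alpha, rose by 1.28 ± 0.21 and 1.11 ± 0.21 at day 7 in bleomycin and silica. It was the only gene of the 31 called at BLM day 63 (17.7, 24.7 and 22.01 CPM against 12.2, 16.3 and 11.7 CPM, 0.65 ± 0.21, adjusted p = 0.043), and that call was lost without any of 4 libraries (adjusted p up to 0.20) and kept in 4 of 9 other settings. Prim2, the large primase subunit, was 0.259, 0.502 and 4.68 CPM in untreated, with replicate 3 apart, and 4.06, 6.87 and 5.07 CPM and 4.77, 5.31 and 10.9 CPM at day 7 (1.96 ± 0.54, adjusted p = 0.0058 and 2.34 ± 0.52, adjusted p = 4.2e-04), and the bleomycin call was lost without untreated replicate 1 or 2 (adjusted p up to 0.067). Its log2 fold change was 1.37 without untreated replicate 1 and 3.70 without untreated replicate 3 with bleomycin, and 1.74 and 4.07 with silica. The polymerase subunits Pola2, Pold2 and Pole2 passed no test in any comparison. Pole2, a subunit of polymerase epsilon, had the most positive difference between silica and bleomycin at day 14 (0.33 ± 0.49, adjusted p = 0.72), with 2.08, 1.33 and 4.86 CPM against 2.12, 1.79 and 2.76 CPM.

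Nucleotide supply was the group in which every gene rose at day 7 in both models. Tk1, the thymidine kinase of S phase, was 3.37, 10.0 and 8.90 CPM in untreated, 106, 174 and 169 CPM at BLM day 7 and 161, 156 and 203 CPM at SiO2 day 7. At day 14 it was 105, 63.6 and 46.7 CPM with bleomycin and 24.7, 13.9 and 20.9 CPM with silica. At day 63 it was 4.48, 3.44 and 3.78 CPM with bleomycin and 14.5, 20.2 and 16.5 CPM with silica. The libraries of day 7, day 14 and SiO2 day 63 were all above the untreated ones, and those of BLM day 63 were not. Tk1 rose 20.6-fold at BLM day 7 (4.36 ± 0.29, adjusted p = 1.5e-12) and 23.8-fold at SiO2 day 7 (4.57 ± 0.29, adjusted p = 8.9e-14), and had the smallest adjusted p of the 31 genes in both. It was 9.77-fold higher at BLM day 14, 2.71-fold at SiO2 day 14 and 2.34-fold at SiO2 day 63 (adjusted p = 3.8e-10, 0.0020 and 0.0070), the last lost without untreated replicate 1 (adjusted p = 0.10).

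Both listed subunits of ribonucleotide reductase, which makes deoxynucleotides, rose at day 7. Rrm1 was 6.99, 8.79 and 7.49 CPM in untreated, 13.3, 21.1 and 17.1 CPM at BLM day 7 and 20.6, 17.0 and 22.3 CPM at SiO2 day 7, with no overlap, and rose by 1.14 ± 0.26 and 1.35 ± 0.25. Rrm2, its S phase subunit, had 6 counts over the untreated group, 25 at BLM day 14, 1 at SiO2 day 14 and 0 at SiO2 day 63. It rose at day 7 (2.203 ± 0.71, adjusted p = 0.018 with bleomycin and 1.83 ± 0.73, adjusted p = 0.044 with silica), with calls lost without untreated replicate 2 or BLM day 7 replicate 2 in bleomycin, and without untreated replicate 2 or 3 or SiO2 day 7 replicate 1 or 3 in silica (adjusted p up to 0.10 and 0.35). The silica call was kept in 2 of 8 other settings, and the log2 fold change without untreated replicate 1 was 3.01 with bleomycin and 2.62 with silica, and 1.05 in silica without SiO2 day 7 replicate 3. With SiO2 day 63 set to a floor of 3 counts over the group, the ratio of untreated to SiO2 day 63 was 2.42. This ratio leaves out the counting error of the 6 untreated counts, and the difference was not called. Tyms, thymidylate synthase, rose by 1.90 ± 0.36 and 2.05 ± 0.35 at day 7 and was 4.21, 3.46 and 4.23 CPM at SiO2 day 63 against 2.07, 1.51 and 2.34 CPM in untreated (1.04 ± 0.38, adjusted p = 0.041). The day 63 call was lost without any of 5 libraries (adjusted p up to 0.17) and kept in 3 of 9 other settings, and Tyms has a named pseudogene.

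In Okazaki maturation and single-strand binding, Fen1, the flap nuclease, was 11.1, 13.1 and 14.0 CPM in untreated, 38.9, 44.1 and 45.3 CPM at BLM day 7 and 45.4, 42.0 and 51.1 CPM at SiO2 day 7. It rose 3.39-fold (1.76 ± 0.19, adjusted p = 1.2e-08) and 3.66-fold (1.87 ± 0.18, adjusted p = 1.0e-09), and at BLM day 14, with 32.1, 24.5 and 21.002 CPM, 2.03-fold (1.02 ± 0.20, adjusted p = 1.0e-04). None of these 9 libraries overlapped the untreated range. Lig1, the ligase, rose by 1.58 ± 0.41 and 1.53 ± 0.41 at day 7. Of replication protein A, which coats single strands, Rpa1 and Rpa2 were listed. Rpa1 was 29.3, 42.5 and 47.3 CPM in untreated and rose at SiO2 day 7 (62.5, 53.4 and 61.5 CPM, 0.60 ± 0.15, adjusted p = 0.0020, and 0.24 ± 0.15, adjusted p = 0.36 against BLM day 7) and BLM day 14 (66.4, 54.7 and 52.8 CPM, 0.56 ± 0.16, adjusted p = 0.0044, 0.075 without untreated replicate 1). Rpa2 was 9.07, 6.28 and 8.90 CPM in untreated and fell to 3.57, 2.40 and 2.43 CPM at SiO2 day 14, by 1.52 ± 0.36 (adjusted p = 0.0022). It also fell by 1.04 at BLM day 14 and 0.95 at SiO2 day 63 (adjusted p = 0.018 and 0.030), calls lost without untreated replicate 1, among others (adjusted p up to 0.090 and 0.16).

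Uhrf1, which guides the maintenance DNA methylase to new DNA, was close to undetected without treatment. It had 1 count over the 3 untreated libraries, and its levels were 3.77, 4.75 and 6.97 CPM at BLM day 7, 7.02, 6.11 and 4.81 CPM at SiO2 day 7 and 4.59, 4.18 and 2.49 CPM at BLM day 14. All 9 of those libraries were above every untreated one. The ratio to untreated was 50.9 (exact 95% counting interval 8.75 to 2048) at BLM day 7 and 59.7 (exact 95% counting interval 10.4 to 2391) at SiO2 day 7 (adjusted p = 7.5e-06 and 1.1e-06). At SiO2 day 14 it had 9 counts and at SiO2 day 63 8 counts, neither called. Chaf1a, the large subunit of a histone chaperone, was 1.81, 0.754 and 0.468 CPM in untreated, 3.19, 2.91 and 1.90 CPM at BLM day 7 and 3.01, 1.33 and 1.77 CPM at SiO2 day 7, and was not called (1.27 ± 0.60, adjusted p = 0.11 and 0.89 ± 0.61, adjusted p = 0.25).

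**Figure D4:**
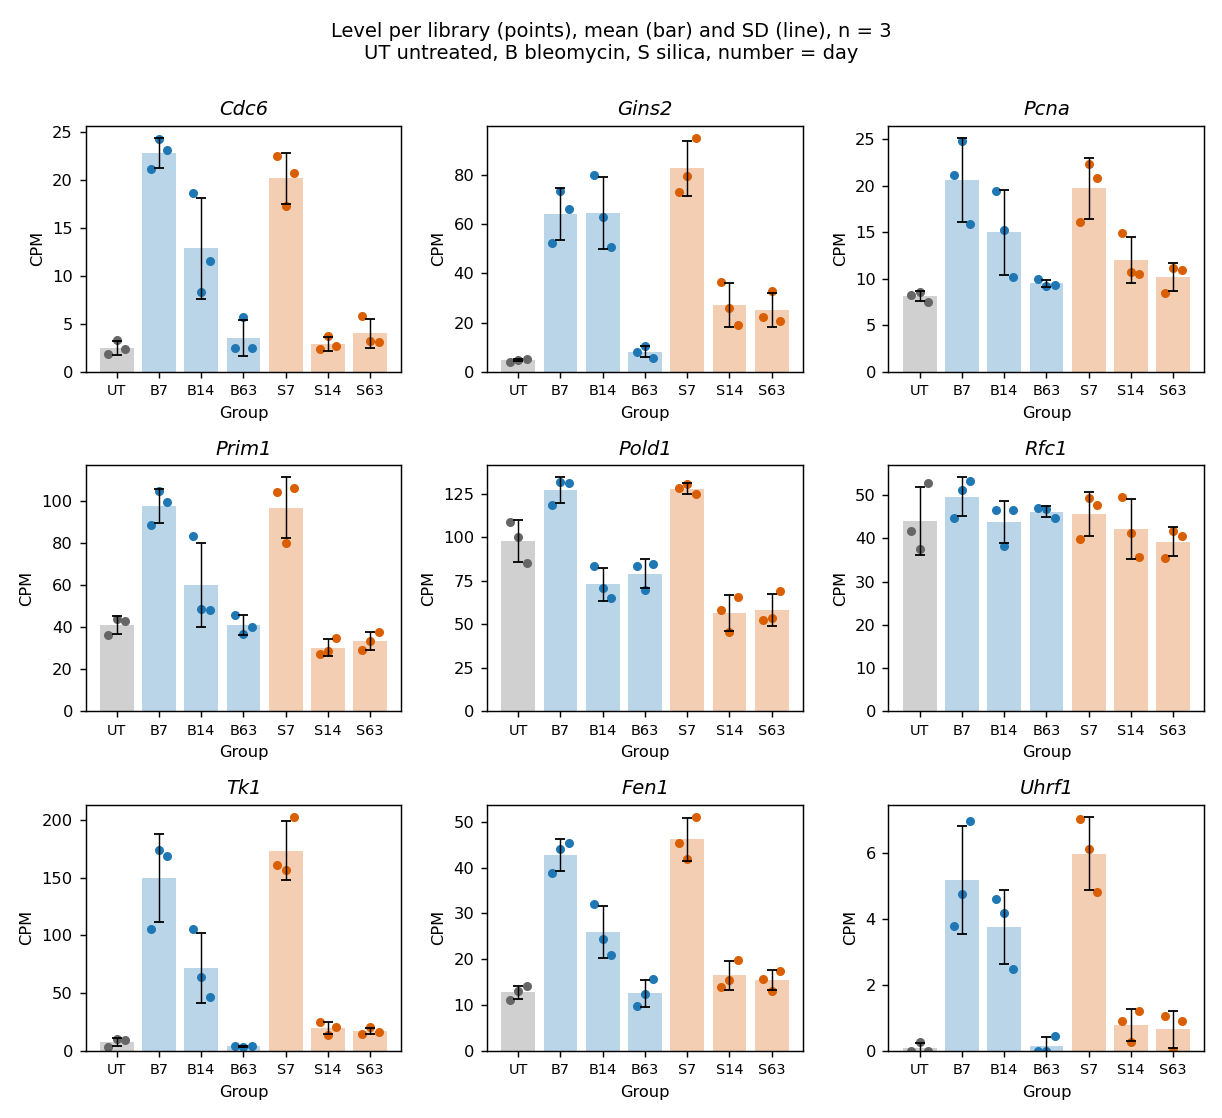
CPM (y axis, from 0) of 9 replication genes by group (x axis: UT untreated, B bleomycin, S silica, with the day); points are libraries in replicate order, bars means and lines SD (n = 3). Tk1 and Gins2 at SiO2 day 63 stay above the untreated libraries, Pold1 at day 14 and 63 lies below them in both models, and Rfc1 overlaps them throughout.

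The 8 genes too low to test were Cdt1, Mcm10, Gins1, Gins3, Rfc3, Rfc4, Pole and Chaf1b, with 9 (Chaf1b) to 102 (Gins1) counts over all 21 libraries. Pole, the catalytic subunit of polymerase epsilon, had 2 counts in untreated, 20 at BLM day 7 and 19 at SiO2 day 7, ratios of 9.60 (exact 95% counting interval 2.33 to 84.8) and 8.10 (exact 95% counting interval 1.95 to 71.7). Rfc3, a clamp loader subunit, had 1, 9 and 13 counts, ratios of 8.64 (exact 95% counting interval 1.20 to 379) and 11.1 (exact 95% counting interval 1.66 to 471). For Cdt1, the licensing factor, the ratios were 2.56 (exact 95% counting interval 0.615 to 15.0) and 2.84 (exact 95% counting interval 0.732 to 16.1), so that a difference was not detectable at this depth. In the same order of groups, Gins1 had 11, 21 and 24 counts and Rfc4 had 4, 10 and 13. Mcm10 had 4, 6 and 8 counts, Gins3 had 7, 5 and 10, and Chaf1b had 0, 4 and 1.

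Between day 7 and day 14 replication genes fell in both models. With silica 20 of 31 genes fell (64.5%, beside 11.1% of all tested genes), the median was -1.18, and all 31 fitted changes were negative. With bleomycin 7 of 31 fell (22.6%, beside 4.82%), namely Cdc6, Cdc45, Pola1, Pold1, Prim1, Tk1 and Fen1, with a median of -0.58. Whichever library was left out, 14 of the 20 silica calls and 4 of the 7 bleomycin calls (Pold1, Prim1, Tk1 and Fen1) were kept. Without BLM day 7 replicate 2 or BLM day 14 replicate 3 the bleomycin count was 4. Tk1 fell by 3.13 ± 0.24 with silica (adjusted p = 8.1e-11) and by 1.07 ± 0.22 with bleomycin (adjusted p = 0.0011). Pold1 fell by 1.18 ± 0.13 and 0.80 ± 0.13. Gins2 fell by 1.62 ± 0.20 with silica (adjusted p = 3.2e-07), and its change with bleomycin was 0.00 ± 0.19.

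The difference between these changes was tested as an interaction. It passed for 9 of the 31 genes, all with the more negative change in silica (29.0%, beside 9.47% of all tested genes): Mcm2, Cdc6, Gins2, Prim1, Rrm2, Tk1, Fen1, Rpa1 and Uhrf1. The median over the 31 was -0.74, against -0.02 over all tested genes. Among the 9, the widest differences were those of Rrm2 (-4.03 ± 1.19), Uhrf1 (-2.38 ± 0.71) and Tk1 (-2.06 ± 0.33, adjusted p = 2.3e-05), and Cdc6 differed by -1.92 ± 0.41 (adjusted p = 9.0e-04). The value of Rrm2 rests on 1 count at SiO2 day 14 and depends on the prior count of the fit; it was -5.89 without SiO2 day 14 replicate 1. Only Cdc6, Gins2, Prim1 and Tk1 kept the call in every leave-one-out fit. The count was 4 without SiO2 day 14 replicate 2 and 5 without SiO2 day 7 replicate 3. BLM day 14 replicate 1 was the highest of its group for 24 of the 31 genes, and without it the summed level of the 39 genes in that group was 497 and 446 CPM, still above the untreated range.

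**Figure D5:**
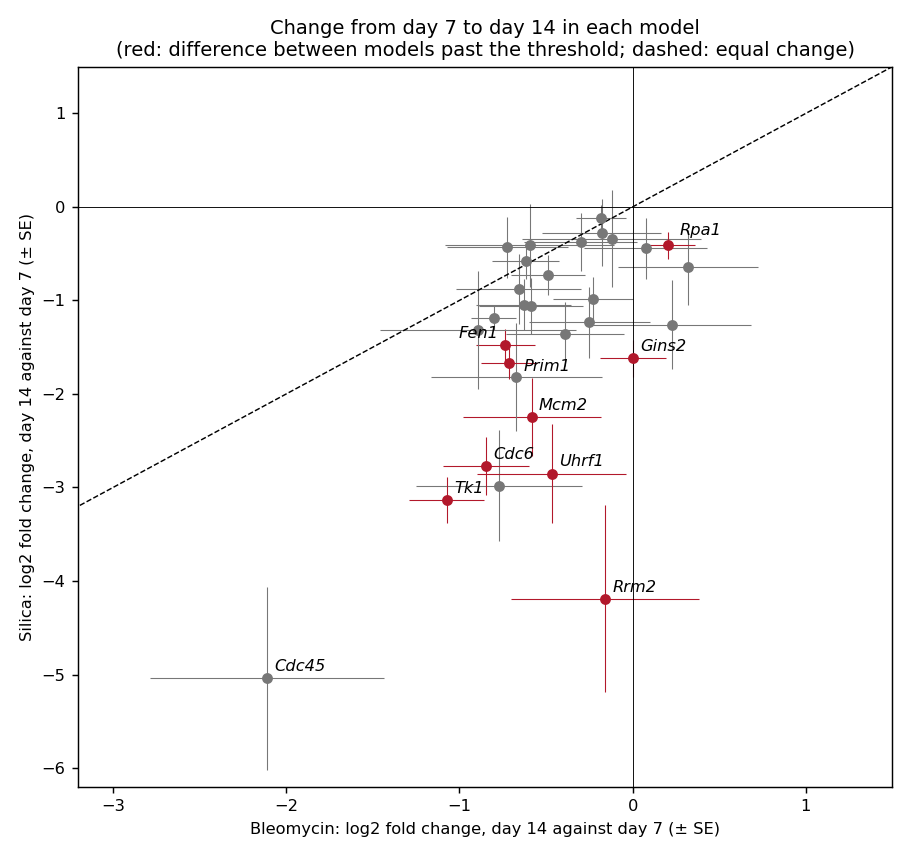
Log2 fold change from day 7 to day 14 with bleomycin (x axis) and with silica (y axis) for the 31 tested genes; bars are standard errors, the dashed line marks equal change, and red marks the 9 genes whose difference between models passed the test. All points lie below 0 on the silica axis, and all red ones lie below the dashed line.

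Against untreated, BLM day 14 still held many higher replication genes and SiO2 day 14 held few. At BLM day 14, 16 of 31 rose (51.6%, beside 20.7% of all tested genes) and 2, Pold1 and Rpa2, fell (6.45%, beside 18.5%). Without BLM day 14 replicate 1 the number that rose was 10, and without untreated replicate 1 none was called lower. At SiO2 day 14, 3 of 31 rose (9.68%, beside 13.6%), namely Gins2, Tk1 and Prim2, and 2, Pold1 and Rpa2, fell (6.45%, beside 10.5%), shares below those of all tested genes. Prim2 (5.35, 3.73 and 4.37 CPM, 1.70 ± 0.56, adjusted p = 0.024) lost its call without untreated replicate 1 or 2 or SiO2 day 14 replicate 1 (adjusted p up to 0.20), and its log2 fold change was 1.10 without untreated replicate 1 and 3.43 without untreated replicate 3. Without untreated replicate 1, or with upper quartile scaling, 4 genes were called lower at SiO2 day 14. Upper quartile scaling also moved the share of higher genes among all genes called there from 56.4% to 44.8%.

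Silica and bleomycin were also compared at the same day. At day 7, 0 of the 31 genes differed at an adjusted p under 0.05 (edgeR, beside 10.4% of all tested genes in either direction), 0 differed at an unadjusted p under 0.05, and DESeq2 and limma-voom also called 0. The fitted differences ran from -0.39 (Chaf1a) to 0.55 (Mcm2). That of Tk1 was 0.21 ± 0.21, that of Cdc6 -0.18 ± 0.23 and that of Prim1 -0.01 ± 0.15. At day 14, 8 of 31 were lower with silica (25.8%, beside 8.03% of all tested genes): Mcm5, Cdc6, Gins2, Prim1, Rrm2, Tk1, Fen1 and Uhrf1. The log2 difference was -1.85 ± 0.25 for Tk1 (adjusted p = 2.1e-06), -2.10 ± 0.33 for Cdc6 (adjusted p = 2.0e-05) and -1.25 ± 0.20 for Gins2 (adjusted p = 3.1e-05), with no overlap of the libraries. Rrm2 had 1 count with silica and 25 with bleomycin, a ratio of 28.7 (exact 95% counting interval 4.69 to 1177). Without SiO2 day 14 replicate 2 the count was 5, as Mcm5, Fen1 and Uhrf1 lost the call. Mcm5 also lost it without BLM day 14 replicate 1 or SiO2 day 14 replicate 1 or 3 (adjusted p up to 0.21) and in 4 of 8 other settings. Fen1 also lost it without BLM day 14 replicate 1 or SiO2 day 14 replicate 1 (adjusted p up to 0.15).

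At day 63 few replication genes differed from untreated. With bleomycin Pola1 alone was higher (3.23%, beside 6.02% of all tested genes). With silica 3 rose (9.68%, beside 15.3%), Gins2, Tk1 and Tyms, and 3 fell (9.68%, beside 12.5%), Gins4, Pold1 and Rpa2, of which Gins2 and Pold1 kept the call in every leave-one-out fit. Without untreated replicate 1 only Gins2 was called higher, and without SiO2 day 63 replicate 1 only Pold1 was called lower. Between the models at day 63, Gins2 (1.65 ± 0.25, adjusted p = 1.5e-05), Tk1 (2.11 ± 0.37, adjusted p = 9.7e-05) and Tyms (1.10 ± 0.37, adjusted p = 0.040) were higher with silica (9.68%, beside 9.13%). Pola1 (-0.62 ± 0.21, adjusted p = 0.036) and Pold1 (-0.44 ± 0.13, adjusted p = 0.023) were lower (6.45%, beside 6.44%), and the counts lower fell to 0 without BLM day 63 replicate 3 or SiO2 day 63 replicate 1 or 2 and to 1 without BLM day 63 replicate 1 or 2. Tyms lost its call without any of 5 of the 6 libraries (adjusted p up to 0.19) and kept it in 3 of 9 other settings.

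The change from day 14 to day 63 was compared within each model, and the difference between the models over this interval was not tested. With bleomycin 13 of 31 genes fell (41.9%, beside 16.9% of all tested genes), with log2 fold changes of -4.17 ± 0.32 for Tk1 (adjusted p = 1.7e-11) and -3.00 ± 0.24 for Gins2 (adjusted p = 2.9e-11). Uhrf1 went from 36 counts to 2, a ratio of 22.05 (exact 95% counting interval 5.68 to 189). The number that fell was 8 without BLM day 14 replicate 1. With silica 0 of 31 were called (edgeR, beside 3.52% of all tested genes in either direction), 2 had an unadjusted p under 0.05, and DESeq2 and limma-voom called 0, while 1 was higher without the filter on low counts. Cdc45 had the smallest adjusted p there, with 1 count at day 14 and 17 at day 63, a ratio of 15.8 (exact 95% counting interval 2.48 to 662).

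Other genes of the replication machinery, a list of 33 of which 28 were tested, moved in part with the 39. At day 7, 14 of the 28 rose with bleomycin (beside 16.7% of all tested genes) and 14 with silica (beside 23.4%). In each model 3 of the 28 fell, beside 14.9% and 20.6% of all tested genes. Dscc1, of an alternative clamp loader, rose by 3.70 ± 0.32 and 3.55 ± 0.32, and Clspn, a fork checkpoint mediator, by 3.25 ± 0.41 and 3.43 ± 0.40. Dnmt1, the maintenance DNA methylase, rose by 1.497 ± 0.27 with silica. The genes that fell were the origin recognition subunit Orc4 (-0.67 and -0.68), the polymerase epsilon subunit Pole4 (-0.65 and -0.53) and the histone chaperone subunit Supt16 (-0.59 and -0.36). At BLM day 14, 9 of the 28 rose (beside 20.7%) and 3 fell (beside 18.5%), and at SiO2 day 14, 2 rose (beside 13.6%) and 4 fell (beside 10.5%). At day 63, 1 rose and 2 fell in each model, beside 6.02% and 5.48% of all tested genes with bleomycin and 15.3% and 12.5% with silica.

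Of 26 regulators of entry into S phase, 20 were tested. At BLM day 7, 11 of the 20 rose (beside 16.7% of all tested genes) and 1 fell (beside 14.9%), and at SiO2 day 7, 10 rose (beside 23.4%) and 1 fell (beside 20.6%). E2f1, an activating E2F factor, rose by 1.41 ± 0.17 and 1.26 ± 0.17. Ccnd2, a D-type cyclin, rose by 1.09 ± 0.13 and 0.58 ± 0.13. The gene that fell was Cdkn1c, an inhibitor of cyclin-dependent kinases, by 1.62 ± 0.18 and 1.55 ± 0.17. Cdkn1c stood at 99.6 ± 6.80 CPM (SD, n = 3) in untreated, 20.5 ± 5.20 CPM at BLM day 14, 47.7 ± 10.2 CPM at SiO2 day 14, 86.8 ± 3.45 CPM at BLM day 63 and 40.5 ± 8.71 CPM at SiO2 day 63. Cdkn1a, another such inhibitor, was 950.4 ± 277 CPM in untreated and 1678 ± 198 CPM at BLM day 7, where it rose (0.82 ± 0.15, adjusted p = 5.6e-05). At SiO2 day 7 it was 759 ± 142 CPM, not called against untreated (-0.32 ± 0.15, adjusted p = 0.074) and lower than with bleomycin (-1.14 ± 0.15, adjusted p = 1.6e-06). Of the 20 regulators, 8 were higher and 1 lower at BLM day 14, beside 20.7% and 18.5% of all tested genes. At SiO2 day 14, 4 were higher and 1 lower (beside 13.6% and 10.5%). Day 63 had 2 higher and 0 lower with bleomycin (beside 6.02% and 5.48%). With silica 6 were higher and 2 lower at day 63 (beside 15.3% and 12.5%).

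Enzymes of nucleotide supply outside S phase made a list of 6 genes, all tested. At SiO2 day 7, 2 rose, Dck (0.91 ± 0.18) and Samhd1, and 3 fell, Rrm2b, Tk2 and Dguok, beside 23.4% and 20.6% of all tested genes. At BLM day 7, 1 rose, the salvage kinase Dck (1.20 ± 0.18), and 1 fell, Dguok (-1.11 ± 0.27), a mitochondrial kinase, beside 16.7% and 14.9%. These genes were named after their values were seen. Of 22 genes of mitosis, 20 were tested. Called higher were 19 at BLM day 7 (beside 16.7% of all tested genes), 18 at BLM day 14 (beside 20.7%) and 19 at SiO2 day 7 (beside 23.4%). At SiO2 day 14 and 63, 1 each was called higher, shares below the 13.6% and 15.3% of all tested genes. The 1 gene was Top2a, which untangles replicated DNA (1.67 and 1.62). The summed mitotic level was 22.02 to 39.9 CPM in untreated, 311 to 376 CPM at BLM day 7 and 336 to 492 CPM at SiO2 day 7. At day 14 it was 137 to 272 CPM with bleomycin and 39.4 to 80.2 CPM with silica. At day 63 it was 21.1 to 29.0 CPM with bleomycin and 43.9 to 58.8 CPM with silica, the latter above every untreated library. Of the 20 tested genes, 19 and 17 had positive fitted changes at SiO2 day 14 and 63, with medians of 0.90 and 0.73.

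Markers of other cells moved with some of these groups. The 6 lymphocyte markers present summed to 3.28 to 5.02 CPM in untreated, 29.5 to 53.7 CPM at BLM day 7, 29.8 to 72.1 CPM at SiO2 day 7, 8.29 to 15.5 CPM at BLM day 14, 23.6 to 34.4 CPM at SiO2 day 14 and 31.8 to 44.2 CPM at SiO2 day 63. Nearly all of it was Ccl5 (55.1 ± 22.5 CPM at SiO2 day 7), while Cd3e had 0 counts in all 18 treated libraries. The 9 myeloid markers summed to 7.25 to 22.9 CPM in untreated, 31.0 to 40.6 CPM at BLM day 7, 17.5 to 20.7 CPM at SiO2 day 7, 15.5 to 24.8 CPM at BLM day 14, 43.0 to 55.9 CPM at SiO2 day 14 and 43.4 to 51.9 CPM at SiO2 day 63, with Ptprc between 0 and 6 counts a group. The 6 mesothelial markers summed to 515 to 640.0 CPM in untreated, 269 to 375 CPM at BLM day 7, 126 to 179 CPM at SiO2 day 7, 385 to 439.9 CPM at BLM day 14 and 395 to 515 CPM at SiO2 day 14. In the interaction of model and day, all 5 tested mesothelial markers and 2 of the 3 tested myeloid markers were called with the more positive change in silica, beside 9.74% of all tested genes, and 3 of the 5 tested markers of pericytes and smooth muscle with the more negative, beside 9.47%. The 7 markers of pericytes and smooth muscle summed to 43.5 to 59.5 CPM in untreated, 82.4 to 93.2 CPM at BLM day 7, 145 to 170.3 CPM at SiO2 day 7, 117 to 142 CPM at BLM day 14 and 100.3 to 152 CPM at SiO2 day 14. The 9 epithelial markers summed to 62.7 to 115 CPM in untreated, 75.7 to 146 CPM at BLM day 7, 42.8 to 65.2 CPM at SiO2 day 7, 45.9 to 62.5 CPM at BLM day 14 and 57.0 to 127 CPM at SiO2 day 14. At SiO2 day 7, 2 of the 3 tested were called higher and 1 lower, beside 23.4% and 20.6% of all tested genes. The 1 called lower was Krt19, which is on the mesothelial list too and counts in both. The 7 endothelial markers summed to 22.4 to 30.9 CPM in untreated, 23.2 to 25.2 CPM at BLM day 7 and 8.10 to 13.0 CPM at SiO2 day 7. At day 14 they summed to 16.4 to 23.8 CPM with bleomycin and 17.2 to 29.9 CPM with silica. At day 63 the mean sums with bleomycin and silica were 4.29 and 39.3 CPM for lymphocyte and 12.2 and 47.6 CPM for myeloid markers. They were 397 and 240 CPM for mesothelial markers and 78.6 and 155 CPM for those of pericytes and smooth muscle. Epithelial markers stood at 41.6 and 29.0 CPM and endothelial ones at 16.7 and 20.0 CPM. The part of these cells in the replication results was not tested.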

How the data were processed

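Counts of 3′SAGE-seq reads per gene symbol, raw and not normalized, were taken from the files as deposited, 1 per library. Per the submitters' processing notes, Bowtie2 2.2.5 and mm10 were used; the annotation, the counting program and its strand setting are not given in the sources used here. Reads carry no molecular identifiers. The 39 genes and all lists were chosen with earlier results of these data known, and lists are described by counts and medians without a set test. The genes described one by one were the 2 with the highest mean CPM of each role group, those with the smallest adjusted p or the most extreme fold change of a comparison, and those called against the main direction.

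The filter on low counts was filterByExpr, given the groups (edgeR 4.0.16, R 4.3.3), libraries were scaled by TMM, and 1 quasi-likelihood model of the 7 groups (14 residual degrees of freedom, biological coefficient of variation 12.0%) gave 14 contrasts, with Benjamini-Hochberg adjustment over 11669 genes. Alternatives were other scalings, filters and thresholds, DESeq2 1.42.0, limma-voom (limma 3.58.1), fits of only the groups compared, a replicate block, and leaving out each library. Groups with 0 counts were set to a floor of 3 counts, and 1 to 3 counts gave a ratio with an exact 95% interval.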

Additional observations from a re-analysis of the deposited data

Results flagged for a closer look

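For 9 of the 31 tested replication genes, the change from day 7 to day 14 with silica differed from that with bleomycin by the interaction test of edgeR's quasi-likelihood model. The silica change minus the bleomycin change, on the log2 scale, was -1.66 for Mcm2, -1.92 for Cdc6, -1.62 for Gins2, -0.96 for Prim1, -4.03 for Rrm2, -2.06 for Tk1, -0.74 for Fen1, -0.62 for Rpa1 and -2.38 for Uhrf1. Adjusted p ran from 2.3e-05 (Tk1) to 0.046 (Mcm2). The value for Rrm2 rests on 1 count over the SiO2 day 14 libraries.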

How the results depend on the processing

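No called result of a replication gene changed direction under any alternative run. The scalings moved the median of all genes by under 0.1, and DESeq2 gave no adjusted p for 10 results, which were left out. The number higher at BLM day 63 was 0 in place of 1 with upper quartile scaling, with DESeq2 size factors, in DESeq2 and at an adjusted p under 0.01. Upper quartile scaling gave 4 lower at SiO2 day 14 in place of 2. At an adjusted p under 0.01 the numbers lower were 1 at BLM day 14, 0 for silica against bleomycin at day 63, 4 for BLM day 14 against day 7 and 4 for the interaction. Without a filter on low counts, 1 gene was lower at BLM day 63 and 1 higher at SiO2 day 63 against day 14. Fitting only the groups compared gave 5 lower for silica against bleomycin at day 14.

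Leaving out 1 library at a time, the number higher ran from 13 to 20 at BLM day 7, 10 to 16 at BLM day 14, 0 to 1 at BLM day 63 and 1 to 3 at SiO2 day 63. The number lower ran from 0 to 3 at BLM day 14, 0 to 1 at SiO2 day 7, 2 to 4 at SiO2 day 14 and 1 to 3 at SiO2 day 63. For silica against bleomycin it ran from 5 to 9 at day 14 and 0 to 2 at day 63, for BLM day 14 against day 7 from 4 to 7, for BLM day 63 against day 14 from 8 to 14, and for the interaction from 4 to 10. The cause was not tested. At this depth Rrm2, Cdc45 and Uhrf1 had 0 to 2 counts in at least 1 group.

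Labels share replicate numbers, but same-numbered libraries did not deviate together (correlations of -0.12 to 0.06 in 63 pairs, 0 above 0.1). With the replicate block 430 of 434 results kept their call, 3 lost it and 1 gained it.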
